A study of Homo sapiens with 4 samples.

Results

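Counts of 10 long noncoding RNA genes were read in every library of a study of nuclear SRP9 in MiaPaCa, an established line of human pancreatic cancer cells. The genes were picked by their Ensembl gene IDs: KCNQ1OT1, MEG3, TUG1, OIP5-AS1, NORAD, PVT1, FTX, DLEU2, MIR17HG and LINC-PINT. All 10 IDs were found among the 60676 listed. SRP9 belongs to the signal recognition particle, where it pairs with SRP14 on the Alu portion of 7SL RNA. The cells were electroporated with a plasmid that encodes variant 1 or variant 2 of SRP9 (v1 and v2 in the labels) fused to FLAG and to a nuclear localisation sequence, linked through an internal ribosome entry site to the green fluorescent reporter acGFP1. They were selected with Geneticin and sorted for green fluorescence. Each variant has 1 library of RNA immunoprecipitated with the tagged protein (RIP) and 1 of whole-cell RNA from the same experiment (input). All 4 libraries therefore come from cells that express a transfected SRP9, and there is 1 library per group. Untransfected cells and a precipitation lacking the tag were not analysed here.

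Long noncoding RNAs act as RNA. Some stay near their own gene and silence or activate neighbours on the same chromosome, some are precursors that carry microRNAs, and others reach the cytoplasm and bind proteins or microRNAs. KCNQ1OT1 and MEG3 come from imprinted loci, where only 1 parental copy is active. NORAD is the mainly cytoplasmic member and a decoy for PUMILIO proteins.

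The files give IDs without names, so each ID carries the name under which it was picked. RefSeq entries for all 10 symbols exist in the gene table of GRCh38.p14. That table places KCNQ1OT1 over part of KCNQ1, OIP5-AS1 over part of OIP5, and DLEU2 over TRIM13, KCNRG, DLEU1 and RPL18P10. FTX overlaps JPX and the 7SL pseudogene RN7SL648P among others. PVT1 overlaps LINC02912, RNVU1-32 and RNU4-25P, and LINC-PINT overlaps LINC00513 and RNU6-1010P. No other gene apart from microRNA genes overlaps MEG3, TUG1, NORAD or MIR17HG there. TUG1 is classed as protein coding in that table and the other 9 as long noncoding RNA. Of the 10 IDs, 9 held a fraction of a read in at least 1 library, and MEG3 held whole counts only. Whether the counting used strand was not given in the sources used here, so reads of a gene and of one on the opposite strand may have been exchanged.

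DLEU2 and MIR17HG are known mainly as precursors of microRNAs. The best known mature forms are shown to identify what these transcripts carry, and other arms and hairpins in the table are left out; the mature microRNAs themselves were not measured here. The sequences are from RefSeq on GRCh38.p14, written 5′ to 3′, with the seed in capitals. In DLEU2, which also holds the hairpin MIR3613, miR-15a-5p and miR-16-5p share 1 seed and lie on the minus strand at chr13:50049167-50049188 (miR-15a-5p) and chr13:50049027-50049048 (miR-16-5p).
hsa-miR-15a-5p: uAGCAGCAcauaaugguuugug
hsa-miR-16-5p: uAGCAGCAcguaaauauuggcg
In MIR17HG, on the plus strand, miR-17-5p (chr13:91350618-91350640) and miR-20a-5p (chr13:91351072-91351094) share a seed, as do miR-19a-3p (chr13:91350939-91350961) and miR-19b-3p (chr13:91351245-91351267). The seeds of miR-18a-5p (chr13:91350756-91350778) and miR-92a-3p (chr13:91351361-91351382) occur once each.
hsa-miR-17-5p: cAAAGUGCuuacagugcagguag
hsa-miR-20a-5p: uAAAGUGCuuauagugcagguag
hsa-miR-18a-5p: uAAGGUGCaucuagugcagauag
hsa-miR-19a-3p: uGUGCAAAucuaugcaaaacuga
hsa-miR-19b-3p: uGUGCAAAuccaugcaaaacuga
hsa-miR-92a-3p: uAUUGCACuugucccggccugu

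The RIP libraries held 3921361 (variant 1) and 5211354 (variant 2) counts, against 50454080 and 58815384 for the inputs. The 10 genes together held 0.12% and 0.13% of the RIP counts and 0.0518% and 0.0566% of the input counts. Levels are given as TMM-scaled CPM, which are counts relative to a library total that edgeR's TMM factor corrects for differences in composition, with 95% exact Poisson intervals. These intervals, and those of folds, treat reads as independent and cover counting error alone. Amplified reads are not independent molecules, so the intervals can be too narrow even for that. They say nothing of the spread between repeat experiments. The scaling sets the zero of every RIP-over-input value. Library totals in place of TMM would multiply each such fold by 2.27 for variant 1 and 2.25 for variant 2, so the order of the genes is fixed but the sign of those near 0 is not.

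Across the 10 genes, 4 were higher in RIP than in input, 3 were lower and 3 passed no threshold (edgeR quasi-likelihood test over both constructs, Benjamini-Hochberg adjusted p under 0.05). KCNQ1OT1, MEG3, PVT1 and DLEU2 were higher. The input counts of MEG3 alone would not have passed the expression filter, so its RIP counts brought it into the test. Its higher call therefore adds little support beyond those counts. TUG1, OIP5-AS1 and NORAD were lower. FTX, LINC-PINT and MIR17HG were not called. In this fit the 2 constructs stand in as 2 samples of each fraction. They are not replicates. The p-values rest on the spread between the constructs within each fraction, in these 4 libraries only. In the fit, the spread of each gene is drawn towards that of other tested IDs. Of all 41622 IDs tested, 49.5% were called higher and 15.8% lower. Only 28372 and 26720 IDs had a count in input variants 1 and 2. Many tested IDs thus passed the filter through RIP reads, which favours higher calls and raises the median over all tested IDs. All 10 genes were tested, and 9 had 50 counts or more in each input, MEG3 being the exception. There were 15436 tested IDs with that many, here named input-rich IDs, of which 8.31% were called higher and 42.2% lower. Of the 9 input-rich genes, 3 were higher and 3 lower. Over the 10 genes the median log2 fold change was 0.44, against 3.65 for all tested IDs. Over the 9 genes it was 0.27, against -1.15 for input-rich IDs.

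**Figure D1:**
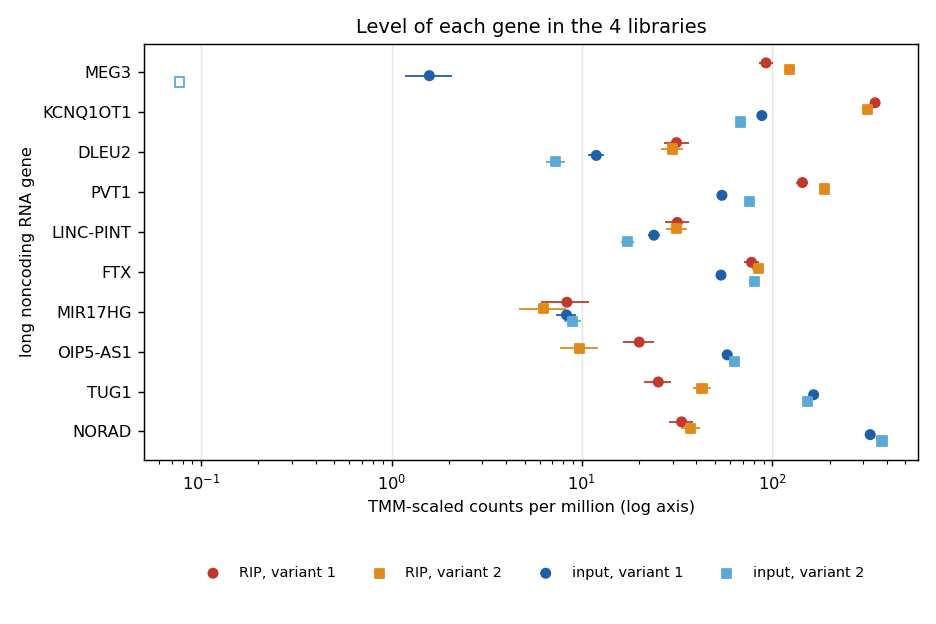
Level of each of the 10 genes in the 4 libraries, as TMM-scaled CPM on a log axis. Points are single libraries, bars are 95% Poisson intervals, and the open square puts MEG3, with 0 counts in the input of variant 2, at 3 counts. The RIP points of KCNQ1OT1, MEG3, PVT1 and DLEU2 lie to the right of both inputs, and those of TUG1, OIP5-AS1 and NORAD to the left.

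KCNQ1OT1 (ENSG00000269821) is an unspliced nuclear RNA, antisense to KCNQ1, that silences its imprinted neighbours. RIP variant 1 held 2016.2 counts, or 347 CPM (interval 332 to 362), and RIP variant 2 held 2468.6, or 316 CPM (304 to 329). Its inputs had 88.2 CPM (85.1 to 91.5) and 68.2 CPM (65.6 to 70.8), from 2913 and 2663.5 counts. Both RIP libraries were thus above both inputs. The RIP level exceeded its own input 3.93-fold (3.71 to 4.16) with variant 1 and 4.64-fold (4.39 to 4.90) with variant 2. The log2 fold change over both constructs was 2.08 ± 0.25 (SE), with an edgeR adjusted p of 0.0018.

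MEG3 (ENSG00000214548) is the maternally expressed RNA of the DLK1 locus and is silenced in many tumours. RIP variant 1 held 539 counts, or 92.7 CPM (85.0 to 101), and RIP variant 2 held 962, or 123 CPM (116 to 131). The input of variant 1 held 52 counts (1.58 CPM, 1.18 to 2.07) and that of variant 2 held 0, where 3 counts would be 0.0768 CPM. MEG3 was thus low in input variant 1, at 0 in input variant 2 and well counted in both RIP libraries. With variant 1, 44658 IDs had a count in RIP and 28372 in the input. With variant 2 these were 51589 and 26720. RIP reads without input reads are thus not particular to MEG3. Its enrichment was 58.9-fold (44.2 to 79.8) with variant 1. With variant 2 it was at least 1606-fold if the 0 stands for 3 counts or fewer. This bound becomes at least 803-fold should both reads of a fragment have been counted. Of IDs with 40 to under 80 counts in input variant 1, 23.4% had 0 in input variant 2. Such a 0 was thus common, and the bound, like the interval, covers counting error only. The fitted log2 fold change of 7.12 ± 1.46 (edgeR adjusted p = 0.0082) depends on how a 0 is handled. It was 5.81 (edgeR adjusted p = 2.7e-05) without input variant 2, which holds the 0, and 13.84 (1.4e-06) without input variant 1, where only the 0 is left to compare with. The call was lost without RIP variant 1 (adjusted p = 0.098) or RIP variant 2 (adjusted p = 0.11), again by edgeR.

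Since MEG3 had few or no reads in whole-cell RNA, its promoter window is shown, from 250 bases before to 50 bases after a RefSeq start site (GRCh38.p14, plus strand, chr14:100825858-100826157). The capitals mark the only match to TGACGTCA, the palindromic cyclic AMP response element, which reads the same on both strands. Of 35116 promoter windows in the RefSeq table, 649 (1.85%) hold these letters. Among the 8 of the 10 genes with a window there, MEG3 was the only one that did. A match describes the letters and is not evidence of a bound site.
MEG3 promoter window: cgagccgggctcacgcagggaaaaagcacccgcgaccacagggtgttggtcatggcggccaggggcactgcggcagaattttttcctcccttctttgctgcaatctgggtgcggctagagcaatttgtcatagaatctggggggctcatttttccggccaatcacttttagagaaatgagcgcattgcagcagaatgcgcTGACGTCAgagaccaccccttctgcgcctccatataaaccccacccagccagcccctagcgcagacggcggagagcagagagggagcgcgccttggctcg

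PVT1 (ENSG00000249859) lies beside the MYC oncogene and is often amplified with it. It had 144 CPM (134 to 154) and 188 CPM (178 to 198) in RIP with variants 1 and 2. The inputs had 54.4 CPM (51.9 to 57.0) and 75.8 CPM (73.1 to 78.6). In both fractions variant 2 was the higher, and the fractions did not overlap. This gave RIP over input of 2.64-fold (2.43 to 2.87) with variant 1 and 2.48-fold (2.33 to 2.64) with variant 2. Over both constructs, the log2 fold change was 1.35 ± 0.29 (SE, edgeR adjusted p = 0.0094). The call was lost without RIP variant 2 (adjusted p = 0.072), input variant 1 (0.11) or input variant 2 (0.060).

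DLEU2 (ENSG00000231607), the host transcript of miR-15a and miR-16-1 in the region deleted in chronic lymphocytic leukaemia, had lower counts. RIP variant 1 had 31.4 CPM (27.1 to 36.4) and RIP variant 2 had 29.9 CPM (26.1 to 33.9), from 182.58 and 233 counts. Input variant 1 had 11.9 CPM (10.8 to 13.1) and input variant 2 had 7.28 CPM (6.45 to 8.16). The RIP intervals overlapped and both inputs were lower. Its RIP over input was 2.64-fold (2.21 to 3.16) with variant 1 and 4.10-fold (3.44 to 4.90) with variant 2. The log2 fold change of 1.68 ± 0.54 passed the threshold narrowly (edgeR adjusted p = 0.030). A replicate block for the construct ended the call (log2 fold change 1.72, adjusted p = 0.095), and so did leaving out RIP variant 1 (adjusted p = 0.15), RIP variant 2 (0.13) or input variant 2 (0.19), and testing with no filter on low counts (0.067).

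FTX and MIR17HG, which also hold microRNA hairpins, as do PVT1 and MEG3, passed no threshold. FTX (ENSG00000230590), an X-linked RNA of the X-inactivation centre, had 77.8 and 84.4 CPM in RIP variants 1 and 2, against 53.8 and 80.9 CPM in the inputs. Its RIP level in variant 1 lay below its input level in variant 2, so the fractions overlapped. RIP over input was 1.45-fold (1.30 to 1.60) with variant 1 and 1.04-fold (0.957 to 1.13) with variant 2, and the log2 fold change was 0.27 ± 0.31 (edgeR adjusted p = 0.46). MIR17HG (ENSG00000215417), the precursor of an oncogenic microRNA cluster, had 8.34 and 6.28 CPM in RIP and 8.30 and 8.94 CPM in the inputs, for variants 1 and 2. Its RIP values rest on 48.5 and 49 counts, the lowest of the 10 genes in both RIP libraries. Its log2 fold change was -0.25 ± 0.79 (edgeR adjusted p = 0.80).

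LINC-PINT (ENSG00000231721) is a transcript induced by p53. RIP variant 1 had 31.7 CPM (27.2 to 36.6), and the level with variant 2 was 31.4 CPM (27.6 to 35.6). Its inputs had 23.9 CPM (22.2 to 25.6) and 17.4 CPM (16.1 to 18.8). Both RIP libraries were above both inputs, yet the log2 fold change of 0.61 ± 0.43 was not called (edgeR adjusted p = 0.25). Levels of RIP and input did not overlap for 8 of the 10 genes. This held for 87.4% of all tested IDs and 81.8% of input-rich IDs, so lack of overlap is common in these libraries.

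NORAD (ENSG00000260032) was the gene furthest below its input. RIP variant 1 held 194 counts, or 33.4 CPM (28.8 to 38.4), and RIP variant 2 held 289.67, or 37.1 CPM (33.0 to 41.7). The inputs had 327 CPM (321 to 333) and 377 CPM (371 to 383), from 10800.83 and 14723.67 counts. Relative to its own input, RIP was 9.81-fold lower (8.51 to 11.4) with variant 1 and 10.1-fold lower (9.02 to 11.4) with variant 2. With both constructs, the log2 fold change was -3.32 ± 0.25 (SE, edgeR adjusted p = 0.00062).

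TUG1 (ENSG00000253352), found in the nucleus and the cytoplasm and known for binding chromatin regulators, was also lower in RIP. It had 25.2 CPM (21.2 to 29.5) and 42.8 CPM (38.3 to 47.6) in RIP with variants 1 and 2, and 165 CPM (160 to 169) and 153 CPM (149 to 157) in the inputs. The inputs were close and the RIP libraries further apart. RIP over input was 6.53-fold lower (5.56 to 7.78) with variant 1 and 3.57-fold lower (3.20 to 4.00) with variant 2. The log2 fold change was -2.22 ± 0.34 (SE, edgeR adjusted p = 0.0036).

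OIP5-AS1 (ENSG00000247556), also called cyrano, is known for directing the decay of the microRNA miR-7. RIP variant 1 had 20.0 CPM (16.5 to 23.9) and RIP variant 2 had 9.68 CPM (7.67 to 12.2). The inputs had 58.0 CPM (55.4 to 60.6) and 63.3 CPM (60.8 to 65.8), well above both. In RIP it was 2.90-fold lower (2.41 to 3.53) with variant 1 and 6.54-fold lower (5.17 to 8.28) with variant 2. The log2 fold change was -2.03 ± 0.46 (SE, edgeR adjusted p = 0.010). It was no longer called on library totals (-0.84, edgeR adjusted p = 0.17) or with the input-rich IDs fitted alone (-0.92, adjusted p = 0.13).

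**Figure D2:**
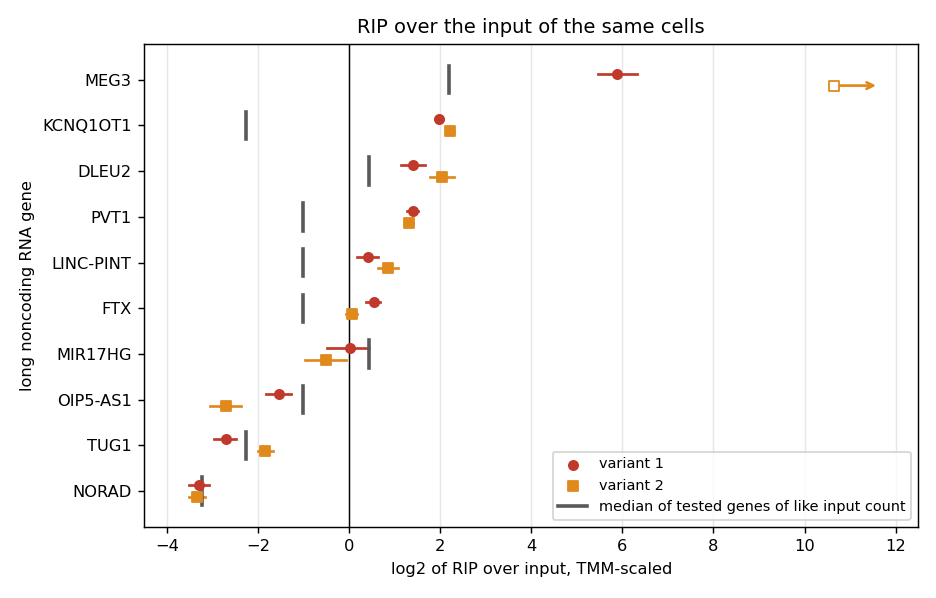
RIP over the input of the same variant for each gene, on a log2 scale after TMM scaling. Points are single pairs of libraries with 95% counting intervals, the open square with an arrow is a lower bound, and grey bars are the median of tested genes in the same class of summed input count. KCNQ1OT1 lies far to the right of its class median, and both points of NORAD lie beside theirs.

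The median RIP-over-input value fell from 2.20 among IDs with few summed input counts to -3.22 among those with many. Each of the 10 genes was therefore set beside tested IDs of the same class of summed input count. The inputs are also the denominators of these values. For NORAD the class median was -3.22, close to its own -3.32, and 512 of 920 IDs in the class were higher. Among the 859 tested IDs within 1.5 times of the summed input count of NORAD, 586 were higher and the median was -2.98. TUG1 likewise lay near its class, with -2.22 against a median of -2.26. OIP5-AS1, with -2.03 against a class median of -1.01, lay below it, and 4471 of 5700 IDs were higher. Its 4386.5 summed input counts are near the upper limit of that class. Within 1.5 times of that sum the median was -1.54, nearer to OIP5-AS1, and 1992 of 2954 IDs were higher.

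KCNQ1OT1 shared the class of TUG1 (5000 to under 20000 summed input counts, median -2.26) and had a log2 fold change of 2.08. None of the 3443 tested IDs in that class had a higher value, and 9 (0.261%) were called higher. Its 5576.5 summed input counts are near the lower limit of the class. Among the 2806 tested IDs within 1.5 times of that sum, 2 had a higher value and the median was -1.76. With classes set on the input of variant 1 alone, and the ratio read in variant 2, 0 of 3244 IDs exceeded KCNQ1OT1. That class runs from 2500 to under 10000 counts, with a median of -2.30. The 2913 counts of KCNQ1OT1 in input variant 1 are near its lower limit too.

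PVT1, FTX and LINC-PINT fell in the class of 1000 to under 5000 summed input counts, with a median of -1.01. Of its 5700 IDs, 124 lay above PVT1, 814 above FTX and 510 above LINC-PINT. PVT1 and FTX are near the upper limit of the class, with 4759.2 and 4936.15 summed input counts. Within 1.5 times of these sums the medians were -1.62 for PVT1 and -1.63 for FTX. There, 10 of 2944 IDs lay above PVT1 and 55 of 2918 above FTX. For LINC-PINT that median was -0.59, with 429 of 2680 IDs above it. DLEU2 and MIR17HG were in the class from 200 to under 1000, with a median of 0.44, and had 1090 and 2958 of 4585 IDs above them. Within 1.5 times of their sums, 310 of 2321 IDs lay above DLEU2 and 1380 of 2298 above MIR17HG. MEG3, with 52 summed input counts, had 5 of 5115 above it in a class with a median of 2.20. Its sum is near the lower limit of that class, which runs from 50 to under 200. Within 1.5 times of the sum the median was 2.99, and 7 of 3368 IDs lay above MEG3. These counts are descriptions and were not tested.

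**Figure D3:**
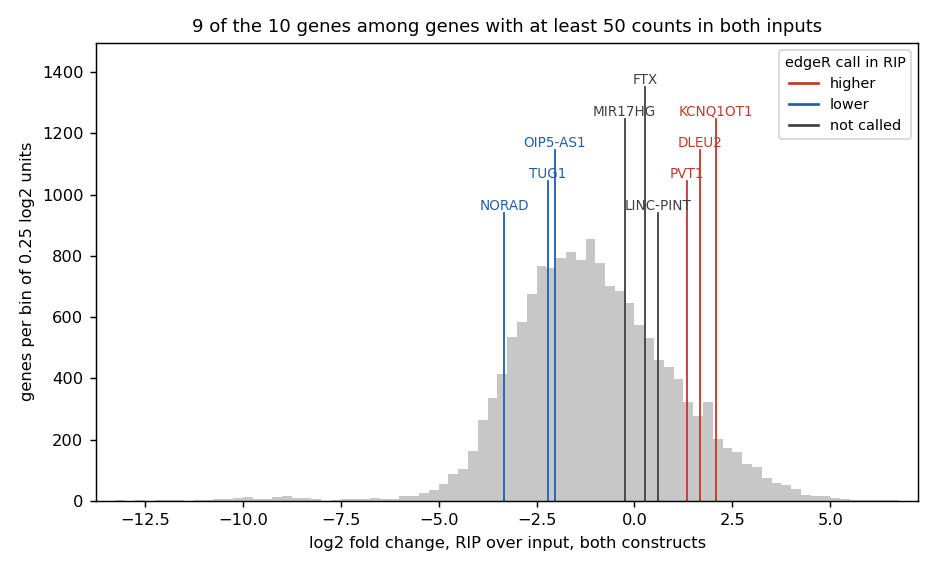
Distribution of the log2 fold change of RIP over input (horizontal axis) for the 15436 input-rich IDs, as IDs per bin. Vertical lines mark the 9 of the 10 genes among them, coloured by their edgeR call. NORAD, TUG1 and OIP5-AS1 lie left of the median of -1.15, and the other 6 to its right.

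Scaling moves all IDs nearly equally, so a difference to the median of the input-rich IDs depends little on it. It was 3.23 for KCNQ1OT1, 2.83 for DLEU2 and 2.50 for PVT1 on the log2 scale. LINC-PINT was 1.76, FTX 1.42 and MIR17HG 0.90 above that median. OIP5-AS1 had -0.89, TUG1 -1.07 and NORAD -2.17. FTX and LINC-PINT were called higher on library totals (log2 fold changes 1.47 and 1.81, edgeR adjusted p = 0.0092 and 0.012) and with input-rich IDs fitted alone (1.39 and 1.73, adjusted p = 0.009 and 0.0094). Higher calls rose in general too, from 20595 to 24271 over all tested IDs on library totals. Among input-rich IDs they rose from 1282 to 3418 when fitted alone. MIR17HG changed sign on library totals, to 0.95 (edgeR adjusted p = 0.33).

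**Figure D4:**
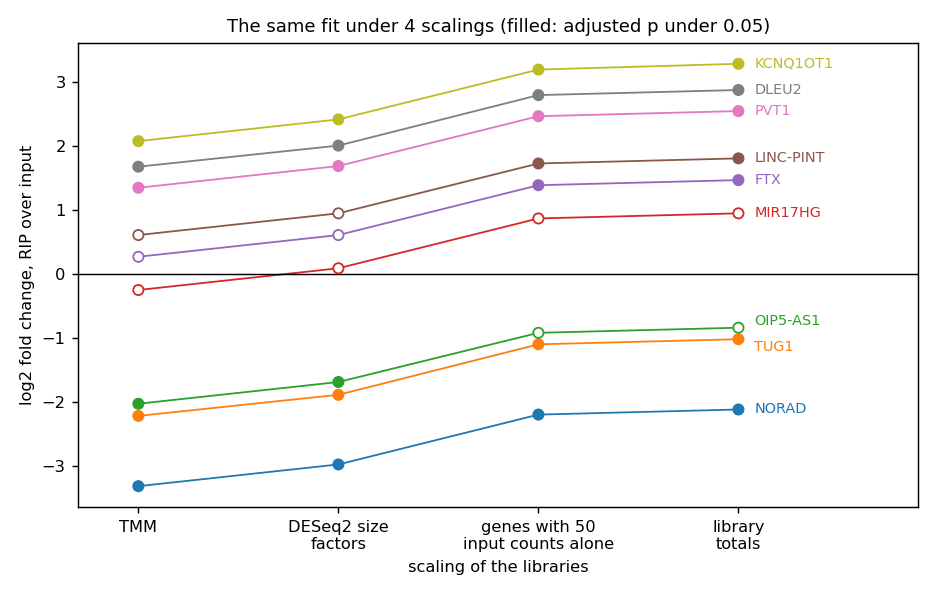
Log2 fold change of RIP over input (vertical axis) for 9 genes under 4 ways of scaling the libraries (horizontal axis), from the same edgeR design. Filled points have an adjusted p under 0.05. All 9 lines run nearly in parallel, MIR17HG crosses 0, and MEG3 is left out because it is not input-rich.

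The share of each gene in the counts of the 10 genes needs no scaling either. KCNQ1OT1 made up 42.8% and 36.4% of these counts in RIP variants 1 and 2, and 11.1% and 8.01% in the inputs. NORAD made up 4.11% and 4.27% in RIP and 41.3% and 44.3% in the inputs. For each read of NORAD there were 10.4 and 8.52 reads of KCNQ1OT1 in RIP variants 1 and 2. In the inputs there were 0.270 and 0.181. The ratio of these ratios was 38.5 with variant 1 and 47.1 with variant 2. MEG3 went from 0.199% and 0% of the counts in the inputs to 11.4% and 14.2% in RIP, and PVT1 from 6.87% and 8.91% to 17.7% and 21.6%. TUG1 went the other way, from 20.8% and 17.9% to 3.11% and 4.92%. These are shares of reads, not of molecules, as they are not set per length.

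**Figure D5:**
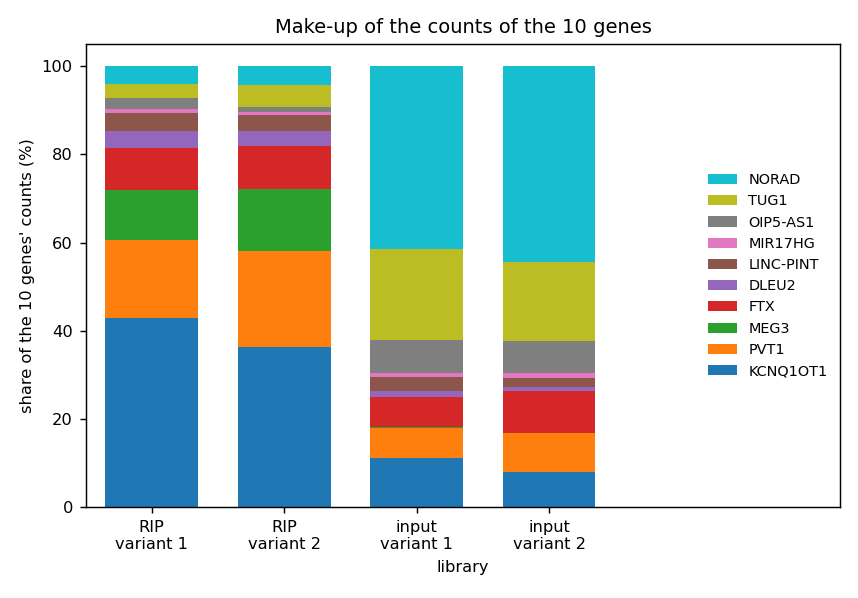
Share of each gene (vertical axis, percent) in the summed counts of the 10 genes, for each of the 4 libraries. KCNQ1OT1, PVT1 and MEG3 make up most of the RIP columns, and NORAD and TUG1 most of the input columns.

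The order of the genes was much the same with both variants. The log2 ratios of RIP over own input had a Spearman correlation of 0.96 and a Pearson correlation of 0.96 over the 10 genes, and 0.95 each without MEG3. These ratios share no library, but the inputs come from the same cell line, and genes are not replicates. The 10 genes also span classes of summed input count whose medians run from 2.20 to -3.22. The correlation over all IDs is not given here, so the value is not particular to these genes. At 2-fold or more, 4 genes were higher in RIP and 3 lower with variant 1, and 4 were higher and 3 lower with variant 2. Of all tested IDs, 63.1% passed 2-fold upwards and 23.1% downwards with variant 1, and 64.4% and 21.2% with variant 2. For input-rich IDs these shares were 16.1% and 54.7% with variant 1, and 15.6% and 53.5% with variant 2.

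Between the RIP libraries of the variants, 9 of the 10 genes differed by less than 2-fold. With 1 library on each side, no test was run. OIP5-AS1 was 2.06-fold higher (1.52 to 2.77) in RIP variant 1, while its inputs were within 1.09-fold. Of input-rich IDs, 12.7% passed 2-fold towards RIP variant 1 and 18.0% towards RIP variant 2, and of all tested IDs 18.7% and 22.8%. TUG1 was lower in RIP variant 1, with a 1.70-fold difference (1.40 to 2.08), and MEG3 too, with 1.33-fold (1.20 to 1.48). The RIP levels of NORAD, FTX, DLEU2, LINC-PINT and MIR17HG had counting intervals that include equality, at folds of variant 1 over 2 of 0.899 (0.745 to 1.08), 0.922 (0.816 to 1.04), 1.05 (0.864 to 1.28), 1.01 (0.828 to 1.23) and 1.33 (0.864 to 2.00). Such an interval does not show that the variants act alike.

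With the inputs taken into account, RIP over input was 2.24 times larger (1.67 to 3.01) with variant 1 for OIP5-AS1, 1.39 times (1.21 to 1.58) for FTX and 1.42 times (0.929 to 2.18) for MIR17HG. It was larger with variant 2 for TUG1, where variant 1 had 0.547 times (0.449 to 0.667) the value, for DLEU2 with 0.646 times (0.505 to 0.826), for LINC-PINT with 0.737 times (0.593 to 0.916) and for KCNQ1OT1 with 0.847 times (0.783 to 0.916). For NORAD and PVT1 it was 1.04 times (0.862 to 1.24) and 1.07 times (0.962 to 1.18). Apart from MEG3, whose ratio in variant 2 is only a bound, OIP5-AS1 was the only gene past 2-fold. At that size, 15.3% of input-rich IDs were larger with variant 1 and 20.9% with variant 2, and of all tested IDs 23.1% and 29.4%.

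The inputs compare whole-cell RNA of the cells with variant 1 and variant 2. There, 9 genes differed by less than 2-fold. DLEU2 was 1.64-fold higher (1.40 to 1.92), LINC-PINT 1.37-fold (1.24 to 1.52) and KCNQ1OT1 1.29-fold (1.23 to 1.36) higher with variant 1. FTX had 0.665 times (0.627 to 0.705) and PVT1 0.717 times (0.676 to 0.761) the level of variant 2. NORAD had 0.869 times (0.847 to 0.890) the level, and TUG1 1.08 times (1.04 to 1.12). In bulk RNA, fewer cells with a transcript and less of it per cell cannot be told apart. MEG3 was the exception with 52 counts against 0. Where input variant 1 had 40 to under 80 counts, 604 of 2584 IDs (23.4%) had 0 in the other input, so a 0 beside such a count was common. Of input-rich IDs, 3.77% passed 2-fold towards variant 1 and 3.41% towards variant 2, and of all tested IDs 14.1% and 10.8%.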

How the data were processed

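HISAT2 2.1.0, featureCounts and Subread 2.0.0 appear in the submitters' processing notes, as does the build GRCh38.p13. For the annotation release, strand and multi-mapping reads, settings were not given in the sources used here. Values deposited by the authors are estimated counts per Ensembl ID, not scaled between libraries, per the file headers and the differing totals. They were rounded to whole counts for the tests.

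RIP was compared with input by the edgeR 4.0.16 quasi-likelihood test (R 4.3.3, TMM scaling, expression filter with a minimum count of 10, 2 residual degrees of freedom), fitted on all IDs with Benjamini-Hochberg adjustment. Standard errors come from the fold change and its F statistic. Single libraries were compared as ratios of TMM-scaled CPM, with log2 ratios at a prior count of 2. Folds have exact conditional intervals at 95%, and differences of ratios a normal approximation on the log scale. A 0 was set to 3 counts per library. Tested on simulated data for RIP against input (41622 IDs), the fit recovered 183 of 200 IDs changed 4-fold, with 10 false calls. The simulation used a fixed dispersion, not the fitted one, and changed only these IDs, equally in both directions. In the data, 20595 IDs were called higher and 6583 lower. The simulation therefore checks that the fit runs and does not give the rate of false calls here.

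The named genes are the 10 members, all reported, and both the members and the tests were chosen with earlier results of these data known. Neighbouring genes, MALAT1, NEAT1, genes with a similar pattern and cell type markers had been listed for a table that pairs Ensembl IDs with names. None was given, so none of these was computed, nor the level of SRP9. By the labels, RIP and input of a variant share their cells. Alternatives were the construct as a replicate block, DESeq2 1.42.0, limma-voom, other scalings and filters, halved counts and leaving out each library. Between the variants, the RIP difference and the input difference had a correlation of -0.0053 over 15436 IDs.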

Additional observations from a re-analysis of the deposited data

Results flagged for a closer look

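MIR17HG had a log2 ratio of RIP over input of 0.01 with variant 1 and of -0.50 with variant 2, on TMM scaling. The signs are opposite, but the variant 1 value is 1.01-fold (0.716 to 1.36), so its sign is not settled. On library totals both ratios were positive, at 1.18 with variant 1 and 0.66 with variant 2. No test of the difference between the variants was possible with 1 library on each side. The counting interval of the difference runs from -0.11 to 1.13 on the log2 scale and includes 0.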

How the results depend on the processing

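The calls of KCNQ1OT1, TUG1 and NORAD held under all 12 alternatives, with adjusted p up to 0.019, 0.039 and 0.0038. Of the 10 genes, 4 were called higher and 3 lower. Leaving out 1 library gave 1 to 3 higher calls, the lowest without RIP variant 2, and 3 lower calls each time. Library totals gave 6 higher and 2 lower, and input-rich IDs fitted alone, without MEG3, gave 5 and 2; both add FTX and LINC-PINT and lose OIP5-AS1. Of the 15436 input-rich IDs, 1282 were called higher in the main fit and 3418 when fitted alone. Over all IDs, 20595 were called higher and 6583 lower, and library totals gave 24271 higher. FTX and LINC-PINT were thus added where higher calls also rose in general. The higher calls were 8289 with the construct as a replicate block, 3418 with input-rich IDs fitted alone, where fewer IDs are tested, and 938 to 18394 with 1 library left out (938 without RIP variant 1 and 1082 without RIP variant 2). The lower calls were 3213 on library totals, 3655 in the fit of those IDs alone, and 5275 to 6452 with 1 library left out. The block ended the call of DLEU2 and changed no other call among the 10 genes. MIR17HG turned positive with DESeq2 size factors in edgeR (0.09), library totals (0.95), input-rich IDs alone (0.87), the DESeq2 Wald test (0.09) and relative to the median of input-rich IDs (0.90). FTX ranged from -0.07, without input variant 1, to 0.31 with 1 library left out. DLEU2 was not called without a filter (edgeR adjusted p = 0.067). For the other changes the cause was not tested. The shallow RIP libraries limit the low members, and a 0 allows up to 0.516 and 0.384 TMM-scaled CPM there for variants 1 and 2. The value relative to the median, the classes on 1 input and the range of 1.5 times were added after seeing the data.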
